A study of Mus musculus with 6 samples.

Results

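Genes of oligodendrocyte precursors and of early oligodendrocyte differentiation were followed in RNA from whole mouse brain. The genes were Pdgfra, Cspg4, Olig1, Olig2, Sox10, Nkx2-2, Myrf, Gpr17, Bcas1 and Enpp6, 10 of the 55450 genes counted, and they were chosen by symbol in the GENCODE M21 annotation. The series holds 3 libraries from TRMT1L KO brains and 3 from WT brains, described as biological triplicates, and it was made to compare brain RNA with and without TRMT1L, a relative of the tRNA methyltransferase TRMT1. The labels give neither the targeted allele nor the sex, age, strain or litter of the animals. RNA above the size limit of the selection was made into libraries with a TruSeq total RNA kit, so that unspliced and nuclear RNA can be present as well as mature messenger RNA.

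Oligodendrocytes, the myelin-forming cells of the brain, arise from precursor cells that persist in the adult and divide in response to platelet-derived growth factor. A precursor that leaves the cycle passes through a committed, pre-myelinating stage before it makes myelin. Olig2, Sox10, Nkx2-2 and Olig1 are transcription factors of the lineage, and Myrf switches on myelin genes in cells that differentiate.

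None of the 10 genes differed between KO and WT beyond the spread between libraries. The log2 fold changes, KO over WT, lay between -0.34 for Enpp6 and 0.13 for Olig1, and the smallest adjusted p-value was 0.719, for Enpp6 (quasi-likelihood test of edgeR, Benjamini-Hochberg adjusted over the 21237 genes left by the filter on low counts, the 10 among them). Of the 10 genes, 0 had an adjusted p under 0.05, against 0.00942% of all genes tested, and 0 had an unadjusted p under 0.05, against 7.92%. That second count was 1 without WT library 3 (Olig2), KO library 1 (Enpp6) or KO library 2 (Sox10), and 2 without the filter on low counts, and the first stayed at 0 in each. In 0 of the 10 did the KO libraries lie wholly above or below the WT libraries, a separation found for 14.4% of all genes tested, with KO above for 7.46% and below for 6.97%. The median log2 fold change of the 10 genes was 0.027, against 0.00013 over all genes. With a correction for GC content it was -0.038, against 0.010 over all genes. In whole-brain RNA, fewer cells of a type and less RNA per cell cannot be told apart.

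The libraries held between 31201119 and 36145961 counts in genes on the strand used. Trmt1l, the targeted gene, had 1279, 1034 and 1158 counts in WT libraries 1 to 3 and 93, 101 and 106 counts in KO libraries 1 to 3, so the counts of all 6 libraries lie on the side of their labels. Neuronal markers were abundant, with Snap25, a synaptic vesicle fusion protein, between 1514 and 1756 CPM (gene counts scaled to a common library size with TMM factors) in the 6 libraries. No pair of libraries of a group agreed within sampling noise (chi-square per degree of freedom between 4.08 and 8.69), and all 6 entered the test as replicates. Nothing in the labels says more on how the triplicates were taken. The p-values set the difference between groups against the spread between these libraries, which edgeR moderates over all genes.

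Levels per length were compared first, as CPM per kilobase of annotated exon averaged over the 6 libraries. Bcas1, a gene of early myelinating cells that many mature oligodendrocytes also express, stood highest at 40.3 CPM per kb, above 96.6% of the genes tested. Olig1 followed at 17.7 CPM per kb, Sox10 at 11.7, Myrf at 10.1, Gpr17 at 7.13, Pdgfra at 6.01, Olig2 at 5.45, Cspg4 at 2.79, Enpp6 at 1.9 and Nkx2-2 at 1.54. The range of Bcas1 over the 6 libraries lay wholly above that of Olig1, the range of Olig1 above that of Sox10 and the range of Olig2 above that of Cspg4. The ranges of Myrf and Gpr17 overlapped, although Myrf was the higher of the pair in each of the 6 libraries. Sox10 and Myrf also overlapped, as did Gpr17 and Pdgfra, Pdgfra and Olig2, Cspg4 and Enpp6, and Enpp6 and Nkx2-2. Nkx2-2 thus had the lowest level per length of the 10 on average, and still lay above 33.4% of the genes tested.

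**Figure D1:**
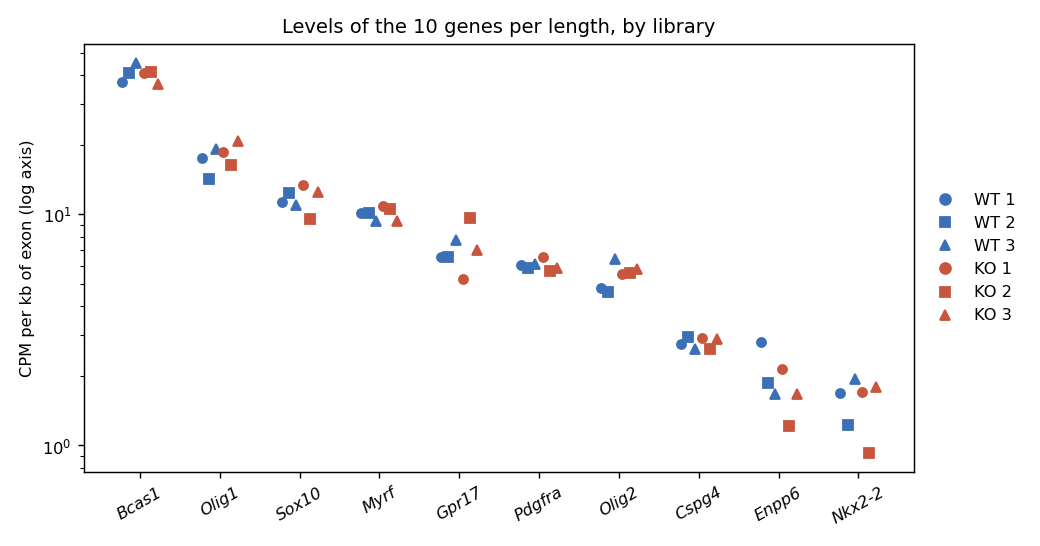
Level of each of the 10 genes in CPM per kilobase of exon (log axis) in each of 3 WT (blue) and 3 KO (red) libraries, ordered by the mean. Bcas1 lies between 36.7 and 44.9 CPM per kb, above all others, and Gpr17, Enpp6 and Nkx2-2 spread the most.

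Pdgfra and Cspg4 mark the precursor at its surface. Pdgfra is the receptor for PDGF-A, the main mitogen of these cells, and spans 75152292 to 75198215 of chromosome 5, plus strand (GRCm38). In WT libraries 1 to 3 Pdgfra had 60.8, 59.0 and 60.8 CPM, and in KO libraries 1 to 3 it had 65.5, 56.9 and 58.5 CPM. Both the highest and the lowest library were KO, with the WT libraries between them. Means were 60.2 ± 1.04 for WT and 60.3 ± 4.55 for KO (CPM, SD, n = 3), which gave a log2 fold change of 0.0028 (SE 0.0593, 95% interval -0.13 to 0.13; edgeR adjusted p = 0.994). This was the smallest difference of the 10, and 98.1% of the genes tested had a larger one. Its sign turned with total counts as the scaling (-0.0069).

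Cspg4, which encodes the NG2 proteoglycan, spans 56865033 to 56899870 of chromosome 9, plus strand. It had 32.7, 35.0 and 31.3 CPM in the WT libraries and 34.9, 31.2 and 34.3 CPM in the KO libraries, which overlap over nearly their whole range. The log2 fold change was 0.021 (SE 0.0656, 95% interval -0.12 to 0.16; edgeR adjusted p = 0.958), and it was -0.072 with the GC correction. Cspg4 is also a gene of pericytes, and Pdgfra one of fibroblasts around vessels and in the meninges. Of 10 pericyte and smooth muscle markers 0 had an unadjusted p under 0.05, against 7.92% of all genes. The smallest were those of Acta2, at -0.17 or -0.073 without WT library 2, and Rgs5, at -0.080. The summed level of the 10 markers lay between 266 and 290 CPM in WT and between 271 and 286 CPM in KO. Of 9 fibroblast markers 2 had an unadjusted p under 0.05, both lower in KO, against 3.38% of all genes lower. They were Dcn (-0.26, SE 0.0757, edgeR adjusted p = 0.576) and Lum (-0.42, SE 0.152). The summed level of the 9 markers lay between 114 and 128 CPM in WT and between 104 and 130 CPM in KO. None of these 19 markers was at 0 in all libraries, and their part in the values of Cspg4 and Pdgfra was not tested.

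**Figure D2:**
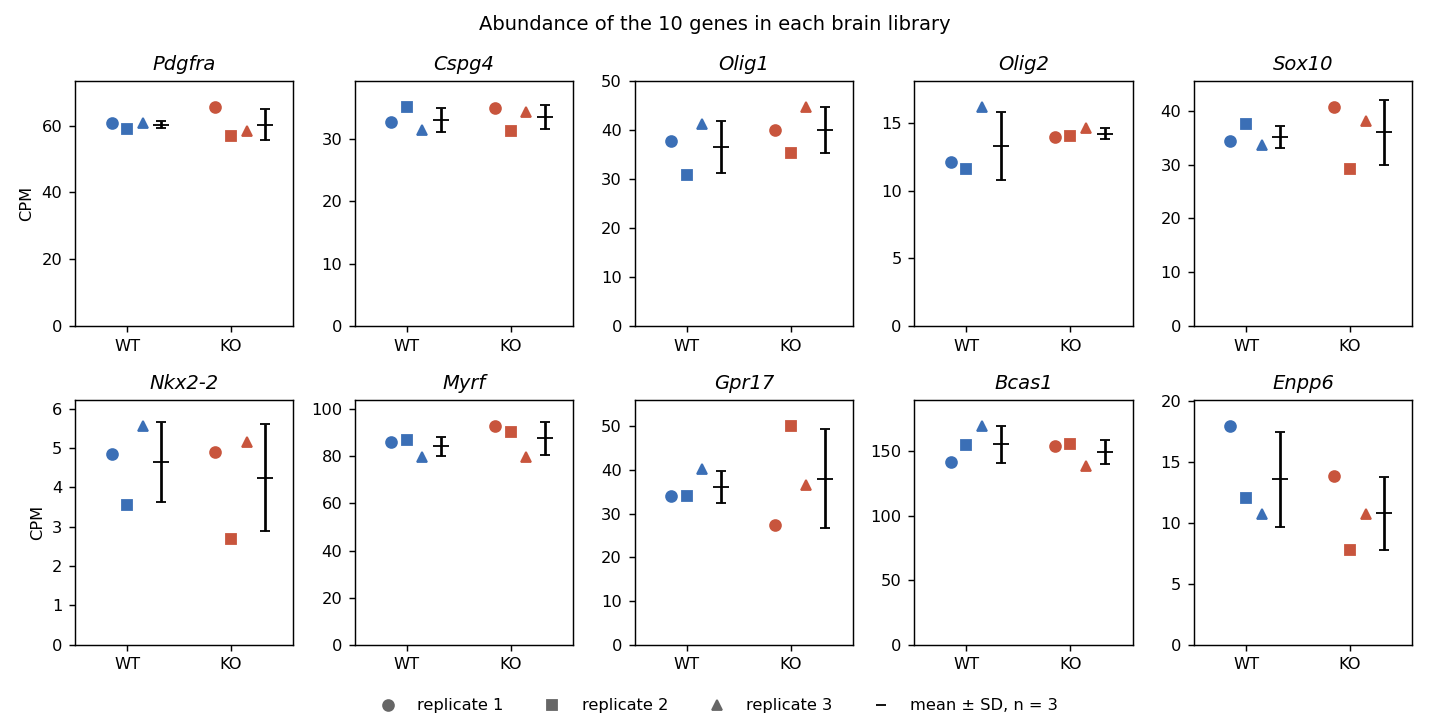
CPM of each of the 10 genes in 3 WT (blue) and 3 KO (red) libraries, with a symbol for each replicate number and the mean ± SD beside each group (linear axes from 0). The groups overlap in every panel, and KO library 2 is the highest for Gpr17, at 50.1 CPM, and the lowest for Enpp6, at 7.78 CPM.

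The transcription factors were next. Olig2 and Olig1, basic helix-loop-helix factors, are neighbours on the plus strand of chromosome 16, from 91225457 to 91228677 and from 91269772 to 91271933, with 41094 bp between them. Olig2 had 12.1, 11.6 and 16.2 CPM in the WT libraries and 14.0, 14.1 and 14.7 CPM in the KO libraries. The KO values lay close together, inside the range of the WT values, which WT library 3 sets at its upper end. Its log2 fold change was 0.097 (SE 0.114, 95% interval -0.15 to 0.35; edgeR adjusted p = 0.856), and it was 0.26 without WT library 3 (adjusted p = 0.761), 0.034 without WT library 1 and 0.011 without WT library 2.

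Olig1, a gene of 1 exon, had 37.7, 30.8 and 41.2 CPM in the WT libraries and 40.1, 35.2 and 44.7 CPM in the KO libraries. With edgeR its log2 fold change of 0.13 (SE 0.105, 95% interval -0.10 to 0.36; adjusted p = 0.791) was the largest upward one of the 10, and leaving out 1 library at a time gave values from 0.020 without WT library 2 and 0.041 without KO library 3 to 0.21 without KO library 2 and 0.22 without WT library 3. With the GC correction both genes came close to no difference, at 0.018 for Olig1 and 0.0090 for Olig2. The longest transcripts held 61.1% G and C for Olig1 and 58.5% for Olig2, and the part of base composition in these values was not tested.

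Sox10, another transcription factor of the lineage, lies on chromosome 15 from 79154908 to 79165240 on the minus strand. It had 34.4, 37.5 and 33.6 CPM in the WT libraries and 40.7, 29.2 and 38.2 CPM in the KO libraries. KO libraries 1 and 3 lay above all WT libraries and KO library 2 below them. KO over WT gave a log2 fold change of 0.034 (SE 0.103, 95% interval -0.19 to 0.26; edgeR adjusted p = 0.957). It was 0.16 without KO library 2 (adjusted p = 0.664), -0.063 without KO library 1, -0.0092 without KO library 3 and -0.083 with the GC correction.

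Nkx2-2, a homeodomain factor that acts around the onset of differentiation and in some neurons, lies on chromosome 2 from 147177546 to 147194243 on the minus strand. With 90 to 186 counts per library it had the fewest counts of the 10 genes. It stood at 4.84, 3.54 and 5.56 CPM in the WT libraries and 4.89, 2.67 and 5.15 CPM in the KO libraries, with replicate 2 the lowest of each group. The log2 fold change was -0.13 (SE 0.228, 95% interval -0.63 to 0.37; edgeR adjusted p = 0.911), and leaving out 1 library at a time gave values from -0.30 without KO library 3 to 0.015 without WT library 3 and 0.11 without KO library 2. Its interval is the widest of the 10, so that a level of 0.65 to 1.29 times WT lies within it.

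On the opposite strand of Nkx2-2, the annotation places Nkx2-2os, an antisense RNA, and 6430503K07Rik. Nkx2-2os had 1.54, 1.5 and 1.28 CPM in the WT libraries and 1.47, 0.921 and 1.6 CPM in the KO libraries (log2 fold change -0.11, SE 0.223, edgeR adjusted p = 0.929). For 6430503K07Rik the value was -0.33 (SE 0.350, edgeR adjusted p = 0.842). Both antisense RNAs, like Nkx2-2, were lowest in KO library 2. The strand of the reads was used in the counting, and 90.0% of the stranded counts at Nkx2-2 were on its own strand.

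Myrf, a membrane-bound factor that is cleaved and then activates myelin genes, lies on chromosome 19 from 10208272 to 10240748 on the minus strand. It had 86.3, 87.1 and 79.7 CPM in the WT libraries and 93.1, 90.5 and 79.8 CPM in the KO libraries. Replicate 3 of each group was at nearly the same level, and KO libraries 1 and 2 were the highest. KO over WT gave a log2 fold change of 0.057 (SE 0.0635, 95% interval -0.082 to 0.20; edgeR adjusted p = 0.848), or -0.019 with the GC correction. Without KO library 3 it was 0.12 (adjusted p = 0.629) and without KO library 1 it was 0.012.

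**Figure D3:**
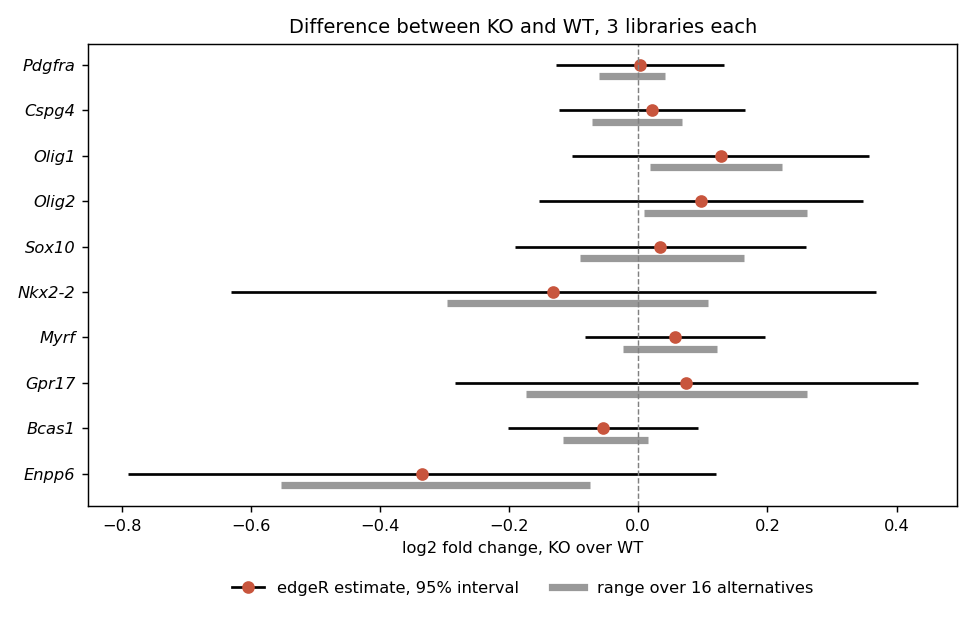
Log2 fold change of each of the 10 genes, KO over WT (red points, edgeR), with its 95% interval (black lines) and the range over 16 other ways of processing or choosing the libraries (grey bars). All 10 intervals include 0, and Enpp6 and Nkx2-2 have the widest.

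Gpr17, Bcas1 and Enpp6 mark cells that have left the precursor state. Gpr17, a G protein-coupled receptor of committed precursors that is switched off before myelin is made, lies on chromosome 18 from 31942997 to 31949636 on the minus strand. It had 34.0, 34.0 and 40.3 CPM in the WT libraries and 27.4, 50.1 and 36.5 CPM in the KO libraries. KO library 2 was the highest of all 6 and KO library 1 the lowest, and the SD was 11.4 CPM in KO against 3.62 CPM in WT. The log2 fold change was 0.075 (SE 0.164, 95% interval -0.28 to 0.43; edgeR adjusted p = 0.935), and it turned to -0.17 without KO library 2 and was 0.26 without KO library 1.

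Lims2, an adaptor protein gene, covers Gpr17 on the opposite strand, and their exons share 188 bp. Lims2 is also on the list of other early differentiation genes used here, and it had 8.57, 8.58 and 8.20 CPM in the WT libraries and 8.14, 11.6 and 8.96 CPM in the KO libraries. Lims2 was thus highest in KO library 2 and lowest in KO library 1, as Gpr17 was (log2 fold change 0.18, SE 0.126, edgeR adjusted p = 0.755). Of the stranded counts at Gpr17, 91.9% were on its own strand.

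Reads on the strand opposite to each gene were tested on their own, where 10787 genes passed the filter. Of the 6 genes followed here that were among them, Olig1, Olig2, Nkx2-2, Myrf, Gpr17 and Bcas1, 0 had an adjusted p under 0.05, against 0.0278% of the genes tested on that strand. Olig1 alone had an unadjusted p under 0.05, against 5.75%, and for it alone every KO count lay above every WT count, against 6.1%.

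Bcas1 lies on chromosome 2 from 170346991 to 170427845 on the minus strand. It had 141, 154 and 170 CPM in the WT libraries and 154, 156 and 139 CPM in the KO libraries, ranges that overlap. KO over WT gave a log2 fold change of -0.055 (SE 0.0671, 95% interval -0.20 to 0.092; edgeR adjusted p = 0.864), and it was 0.015 without WT library 3 and -0.12 without WT library 1. Counting without regard to strand gave 77.8% of the stranded counts of Bcas1, the lowest such share of the 10.

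Enpp6, a choline-specific phosphodiesterase whose messenger RNA marks newly forming oligodendrocytes, spans 46986887 to 47096762 of chromosome 8, plus strand. It had 17.9, 12 and 10.7 CPM in the WT libraries and 13.8, 7.78 and 10.7 CPM in the KO libraries. WT library 1 was the highest and KO library 2 the lowest, 2.31 times apart, and the other 4 libraries lay between 10.7 and 13.8 CPM with both groups among them. Means were 13.5 ± 3.87 for WT and 10.8 ± 3 for KO (CPM, SD, n = 3), which gave a log2 fold change of -0.34 (SE 0.208, 95% interval -0.79 to 0.12; edgeR adjusted p = 0.719). Enpp6 had the largest difference of the 10 genes, and 8.49% of all genes tested had a larger one. Leaving out 1 library at a time gave values from -0.074 without WT library 1 and -0.15 without KO library 2 to -0.48 without WT library 3 and -0.55 without KO library 1. Over the 16 alternatives its adjusted p-value lay between 0.0929, without a filter on low counts, and 0.9996.

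**Figure D4:**
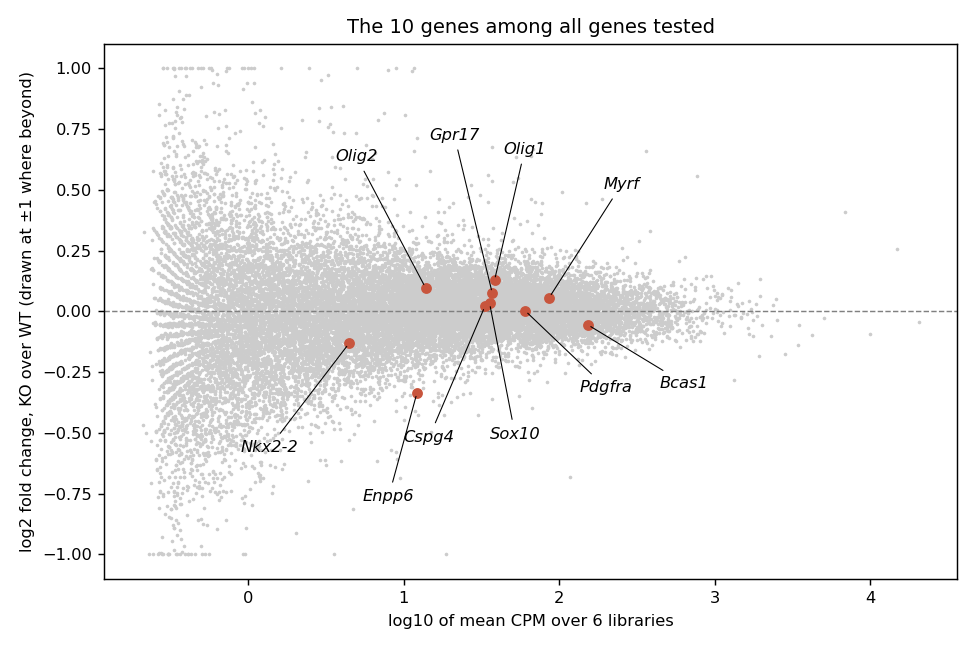
Log2 fold change, KO over WT, against the log10 of the mean CPM over 6 libraries for the 21237 genes tested (grey), with the 10 genes in red. Values beyond 1 are drawn at the edge, and the other 9 genes lie between -0.13 and 0.13, with Enpp6 at -0.34 near the lower edge of the genes of its level.

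The upstream sequences of Enpp6 and Pdgfra, the genes with the largest and the smallest difference, are shown as the 250 bases before the RefSeq start on the plus strand of GRCm38.p6. Capitals mark ACAATG, one of 2 cores searched for SOX factors such as Sox10. Enpp6 is at chr8:46986637-46986886 and Pdgfra at chr5:75152001-75152250.
Enpp6: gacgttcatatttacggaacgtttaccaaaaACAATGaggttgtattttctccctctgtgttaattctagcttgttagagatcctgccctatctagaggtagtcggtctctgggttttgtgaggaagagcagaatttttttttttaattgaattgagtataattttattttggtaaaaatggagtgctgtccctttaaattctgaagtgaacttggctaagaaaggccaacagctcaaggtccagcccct
Pdgfra: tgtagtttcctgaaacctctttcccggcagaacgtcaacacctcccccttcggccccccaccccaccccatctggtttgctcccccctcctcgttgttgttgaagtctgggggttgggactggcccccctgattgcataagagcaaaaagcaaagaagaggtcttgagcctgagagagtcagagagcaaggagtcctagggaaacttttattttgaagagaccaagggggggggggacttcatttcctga
RefSeq promoters were at hand for 5 of the 10 genes, Pdgfra, Cspg4, Olig2, Nkx2-2 and Enpp6, as windows of 300 bases that run to 50 bases past the start. Each was searched on both strands for the SOX cores ACAAAG and ACAATG, the E-box letters CAGCTG and CATATG, which basic helix-loop-helix factors such as Olig2 can bind, and CTGGCAC, letters of the Myrf motif. ACAATG was found 219 bases before the start of Enpp6 and, on the opposite strand, 68 bases before that of Olig2, and no matches overlapped. The same letters stood in 12.6% of all 32851 promoter windows. The other 4 motifs were in 0 of the 5 windows, against 18.7% of all windows for ACAAAG, 16.3% for CAGCTG, 3.91% for CATATG and 5.01% for CTGGCAC. The window of Enpp6 held 40.3% G and C and that of Nkx2-2 59.7%.

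The genes also differed in how much they varied between libraries. The biological coefficient of variation that edgeR fitted was 18.8% for Nkx2-2, 17.6% for Enpp6 and 14.1% for Gpr17, higher than in 94.3%, 92.6% and 84.1% of the genes tested. That of Pdgfra, at 5.62%, was higher than in 23.8% of them, and Cspg4, Myrf and Bcas1 lay between 5.89% and 6.41%. These 4 steadier genes had at least 1031 counts in each library.

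KO library 2 was the lowest of the 6 libraries for 5 of the 10 genes, Pdgfra, Cspg4, Sox10, Nkx2-2 and Enpp6, and the highest for 1, Gpr17. KO library 1 was above the mean of the 6 libraries for 9 of the 10 genes, all but Gpr17. The 5 transcription factors together deviated from their mean by -0.19 in KO library 2 and by 0.12 in both other KO libraries, and by -0.011, -0.14 and 0.11 in WT libraries 1 to 3 (mean deviation of log2 CPM). The mean deviation of Gpr17, Bcas1 and Enpp6 was 0.14, -0.016 and 0.056 in WT libraries and -0.055, -0.032 and -0.087 in KO libraries. The groups did not overlap in this mean, although each of the 3 genes overlapped by itself. In WT library 1 Enpp6 deviated by 0.61, while Gpr17 and Bcas1 deviated by -0.098 and -0.10. How often means of 3 genes separate in this way was not tested, and single genes did so for 14.4% of all genes. The summed level of the 3 genes did overlap, from 193 to 221 CPM in WT and from 186 to 214 CPM in KO.

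**Figure D5:**
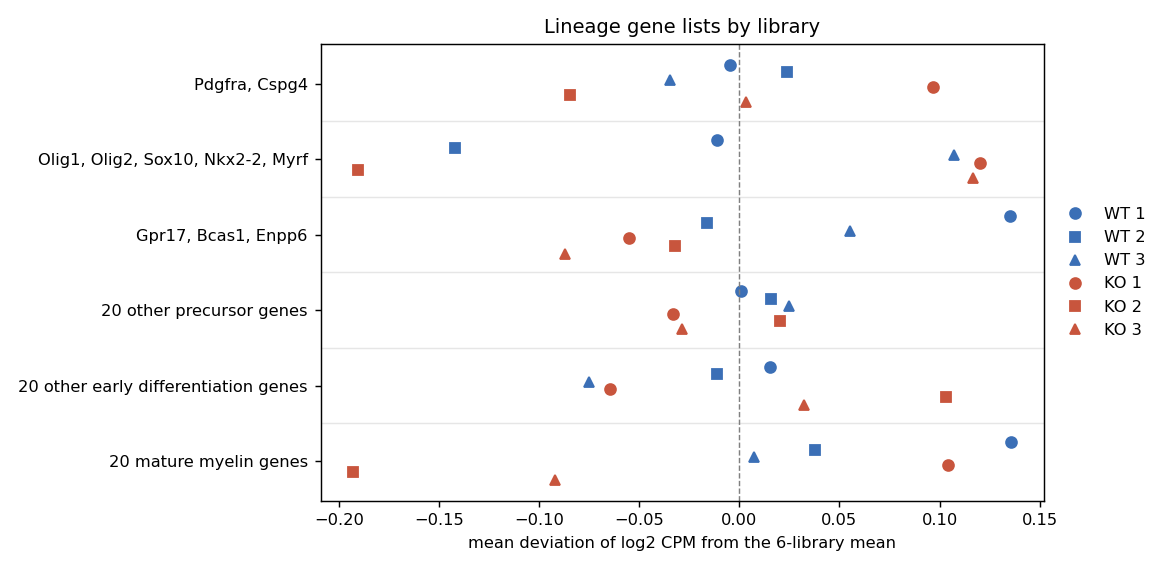
Mean deviation of log2 CPM from the mean of the 6 libraries, for the genes followed here by role and for 3 lists of other lineage genes, in each WT (blue) and KO (red) library. KO library 2 is the highest for the other early differentiation genes, at 0.10, and the lowest for the mature myelin genes, at -0.19.

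Other genes of the lineage were read from the same test. Of 20 other precursor genes 0 passed the threshold over all genes, and the median log2 fold change was -0.023. At an unadjusted p under 0.05, 1 was higher and 1 lower (4.54% and 3.38% of all genes). Those with the smallest p were Sema5a, a semaphorin (-0.11, SE 0.0447, edgeR adjusted p = 0.614), Matn4, an extracellular matrix protein (0.26, SE 0.107, adjusted p = 0.618), and Megf11 (-0.18, SE 0.0931, adjusted p = 0.659), which was at -0.082 without WT library 1 and at -0.29 without WT library 3. Sema5a lay between 98.7 and 104 CPM in WT and between 92.3 and 95.3 CPM in KO, without overlap. Matn4 lay between 5.58 and 6.17 CPM in WT and between 6.36 and 7.40 CPM in KO, also without overlap. Such a separation was seen for 3 of these 20 genes, against 14.4% of all genes, and the other was Ptprz1, a receptor phosphatase, between 445 and 456 CPM in WT and between 394 and 443 CPM in KO (adjusted p = 0.669), which was added after its values were seen.

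Of 20 other early differentiation genes 0 passed, and the median was 0.055. At an unadjusted p under 0.05, 2 were higher and 1 lower (4.54% and 3.38% of all genes). They were Samd4b, an RNA-binding protein (0.19, SE 0.0574, edgeR adjusted p = 0.576), Zfp536, a zinc finger protein (0.16, SE 0.0650, adjusted p = 0.618), and Prom1, a protein of membrane protrusions (-0.19, SE 0.0736, adjusted p = 0.6). Prom1 was at -0.12 without WT library 1 and Zfp536 at 0.093 without WT library 3. In this list KO library 2 was the highest of the 6 for 10 of 20 genes and the lowest for 0, while KO library 1 was the highest for 0 and the lowest for 7. Beside Lims2, genes highest in KO library 2 included Bmp4, a ligand made by committed precursors, at 2.35 CPM against 1.40, 2.07 and 1.70 CPM in WT, and Tns3, a focal adhesion protein, at 108 CPM against 91.8, 84.8 and 84.1 CPM. These 2 were chosen after their values were seen.

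Mature myelin genes were set beside them. Of 20, 0 passed over all genes, and 4 were lower and 0 higher at an unadjusted p under 0.05 (3.38% and 4.54% of all genes). A log2 fold change below 0 was found for 16, against 10607 of the 21237 genes tested, and the median was -0.12. Ugt8a, which makes the myelin lipid galactosylceramide, had 79.9, 70.2 and 76.7 CPM in WT and 63.5, 57.2 and 51.8 CPM in KO (log2 fold change -0.40, SE 0.0745, edgeR adjusted p = 0.542). Ermn, a cytoskeletal protein of oligodendrocytes, was at -0.19 (SE 0.0633, adjusted p = 0.579). The groups overlapped for neither gene. Without a filter on low counts and in DESeq2 Ugt8a passed, with adjusted p-values over the alternatives from 4.53e-08 to 0.991. Whether mature genes and the 10 genes followed here differ in their response was not tested.

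The PDGF system and inhibitors of differentiation gave no call either. Of the ligands and receptors Pdgfa, Pdgfb, Pdgfc, Pdgfd and Pdgfrb 0 had an unadjusted p under 0.05, against 7.92% of all genes. Pdgfb, a ligand made by endothelial cells and others, was at a log2 fold change of 0.10 with edgeR (SE 0.0712, adjusted p = 0.749; 0.0053 with the GC correction) and Pdgfrb, the receptor of pericytes, of 0.050 (SE 0.0943, adjusted p = 0.921; -0.0025 with the GC correction). Of 13 inhibitors 1 had an unadjusted p under 0.05, against 7.92% of all genes. It was Lingo1, a membrane protein that restrains differentiation, at 0.12 (SE 0.0497, edgeR adjusted p = 0.614), or 0.038 with the GC correction. Gpr37, a receptor that delays maturation, was at -0.098 (SE 0.0640, adjusted p = 0.732), or -0.042 without KO library 2 and -0.17 without KO library 1. Pdgfb was at 0.067 without WT library 3.

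Markers of other cell types were read for the same libraries, and 0 of them passed the threshold over all genes. At an unadjusted p under 0.05, 4.54% of all genes tested were higher and 3.38% lower, together 7.92%. Sox10 is also a gene of peripheral glia, and of 6 Schwann cell markers 5 passed the filter on low counts. Those with the smallest p were Ncmap (-0.57, SE 0.227; -0.34 without KO library 2) and Pou3f1 (0.28, SE 0.115), each with an unadjusted p under 0.05. Choroid plexus markers had log2 fold changes above 0 for 6 of 6 genes, against 50.1% of all genes, with a median of 0.18. At an unadjusted p under 0.05 were 2, both higher, Ttr (0.29, SE 0.0757, edgeR adjusted p = 0.576) and Kl (0.18, SE 0.0788, adjusted p = 0.622). Astrocyte markers had 3 of 6 genes at an unadjusted p under 0.05, 2 higher and 1 lower. They were Aldh1l1 (0.18, SE 0.0560, edgeR adjusted p = 0.576), Aqp4 (-0.17, SE 0.0544, adjusted p = 0.576) and Gfap (0.45, SE 0.191, adjusted p = 0.622). Gfap, added after its values were seen, was at 248 CPM in KO library 3 and between 115 and 140 CPM in the others. Microglia had 1 of 6 genes at an unadjusted p under 0.05, P2ry12 (-0.34, SE 0.0741, adjusted p = 0.550), endothelium 0 of 5 and neurons 0 of 6. The smallest p-values of these last lists were those of Cdh5 and Ly6c1 of endothelium, both at a log2 fold change of 0.11, and of Snap25 at -0.093 (-0.052 without KO library 3) and Slc17a7 at 0.080 of neurons. With the GC correction, other listed genes named here moved to -0.073 for Sema5a, 0.11 for Samd4b, 0.085 for Zfp536, -0.10 for Ermn, -0.16 for Dcn, -0.014 for Rgs5, 0.15 for Pou3f1, -0.10 for Aqp4, -0.0080 for Snap25 and 0.012 for Slc17a7. The part of these cell types in the values of the 10 genes was not tested.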

How the data were processed

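Long RNA was measured in 3 KO and 3 WT whole-brain libraries. The authors deposited raw counts of reads per gene, 1 table per library; the submitters' processing notes name cutadapt 1.9.1 and STAR 2.7.0f, and the genome build is not given in the sources used here. All 55450 gene IDs are those of GENCODE M21 (GRCm38), used for names, positions and exon lengths. The column for the strand opposite to the first read, with 94.6% to 94.8% of stranded counts, was used. The summary rows were left out. They hold unmapped, multimapping and ambiguous reads and reads in no gene, together 57.7% to 60.2% of all reads. In R 4.3.3, edgeR 4.0.16 (filterByExpr, TMM factors, quasi-likelihood test, genotype as sole factor) was fitted to all 6 libraries, with p-values adjusted over all genes; it was tested on simulated data. SE is the log2 fold change over the root of F. Log2 CPM used a prior count of 2. List genes named have the 3 (lineage lists) or 2 (others) smallest p-values; some are not reported here. DESeq2 1.42.0, limma-voom (limma 3.58.1), other scalings, filters, the unstranded counts, a replicate block, GC correction and leaving out each library were alternatives. Members and lists were chosen with earlier results of these data known. One older symbol in the lists, Tmem2, was matched to Cemip2 through RefSeq.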

Additional observations from a re-analysis of the deposited data

Results flagged for a closer look

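Counts on the strand opposite to Olig1 lie outside the main measurement, which used each gene's own strand. The WT libraries had 12, 8 and 9 such counts and the KO libraries 20, 17 and 18, so that every KO library lay above every WT library, which held for 6.1% of the 10787 genes tested on the opposite strand. The log2 fold change was 0.85 (SE 0.338, edgeR adjusted p = 0.798, unadjusted p = 0.0173), which did not pass the threshold; 0.0278% of the genes tested on that strand did. Of the stranded counts at Olig1, 98.9% were on its own strand. Gm15966, a long noncoding RNA on that strand, shares 157 bp with Olig1 and had between 0 and 2 counts per library. None of the other 5 genes tested on the opposite strand, Olig2, Nkx2-2, Myrf, Gpr17 and Bcas1, had an unadjusted p under 0.05.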

How the results depend on the processing

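Of the 10 genes, 0 passed under each of the 16 alternatives, with adjusted p-values of 0.0929 or more; DESeq2 gave none for Olig2, Nkx2-2 and Enpp6. Over all genes 2 passed, Trmt1l among them, 298 without a filter on low counts, 25 with the DESeq2 Wald test and 4 with the replicate block; the cause was not tested. Leaving out 1 library at a time gave 2 to 5 genes, with 5 without KO library 3, and 0 of the 10 each time; the median of the 10 then ranged from -0.036 to 0.055. The GC correction turned Cspg4 to -0.072, Sox10 to -0.083, Myrf to -0.019 and Pdgfrb to -0.0025, and with the replicate block as well to -0.071, -0.090, -0.023 and -0.0098. Pdgfra turned to -0.0069 with total counts and to -0.0024 with a mean count of at least 50. Without 1 library each, Pdgfra ranged from -0.062 to 0.042, Cspg4 from -0.014 to 0.068, Sox10 from -0.063 to 0.16, Nkx2-2 from -0.30 to 0.11, Gpr17 from -0.17 to 0.26 and Bcas1 from -0.12 to 0.015, as did Pdgfrb from -0.032 to 0.17, Cdh5 from -0.011 to 0.17 and Ly6c1 from -0.038 to 0.21. Olig1, Olig2 and Enpp6 kept their direction under all 16. With the replicate block 0 of the 10 genes passed at an adjusted p under 0.05, as without it; deviations from the group means correlated across genes between libraries of the same number at 0.040, -0.031 and -0.058, and no KO library correlated best with its own number. Ugt8a, P2ry12 and Ttr passed without the filter and in DESeq2. The count of the 10 genes at an unadjusted p under 0.05, which is 0 in the report, was 2 without the filter, 1 (Enpp6) with the replicate block, with or without the GC correction, and 1 each without WT library 3 (Olig2), KO library 1 (Enpp6) and KO library 2 (Sox10). Nkx2-2 had the fewest counts, 90 to 186 per library.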

Other observations

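By a rule on likeness over the 6 libraries, 5 other genes with a mean of at least 1 CPM were named whose log2 CPM followed the mean of the 10 genes most closely, each gene centred and scaled. They were Snx9 (Pearson r = 0.99), Lrrc36 (0.98), Mid1ip1 (0.98), Bcs1l (0.98) and Gm13375 (0.98), out of 17291 genes, of which 86 had an r above 0.9. All 6 points share their libraries with the 10 genes, and the ranking is a description. Mid1ip1 had 46.3, 45.1 and 50.4 CPM in WT and 52.5, 43.7 and 48.7 CPM in KO, with KO library 1 the highest and KO library 2 the lowest, as in the mean of the 10 genes (0.55 and -0.48 in units of each gene's SD).

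Summed over the 10 genes, the level was 462, 465 and 489 CPM in WT libraries 1 to 3 and 488, 473 and 461 CPM in KO libraries 1 to 3. For the 20 mature myelin genes the sum was 5188, 4813 and 4727 CPM in WT and 4860, 4449 and 4088 CPM in KO. The sums of the groups overlapped for the 10 genes and for the mature genes. KO library 1 had a higher mature sum than WT libraries 2 and 3, and KO libraries 2 and 3 had the lowest of the 6. Opalin, a marker of maturing oligodendrocytes chosen after its values were seen, had 13.5, 20 and 15.6 CPM in WT and 16.1, 8.20 and 20.8 CPM in KO, and was lowest in KO library 2, as Enpp6 and Nkx2-2 were.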
